A study of Arabidopsis thaliana with 12 samples.

Results

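The 3 libraries described here were made from root tips of untreated wild-type seedlings of Arabidopsis thaliana, accession Col-0, and they are 3 of the 12 libraries of a study that also sequenced Col-0 tips given bleomycin, a DNA-breaking drug, and tips of a scl5 scl21 pat1 triple mutant with and without the drug. They were chosen by label alone, as the Col-0 samples kept on control medium, and they carry no mutation, transgene or drug. About 100 seeds per sample were grown on nylon mesh over 1/2 MS medium, the mesh was moved to control medium of the same kind 7 days after sowing, and tips of 0.2 cm were cut, so every library pools many seedlings. The study's design text calls the 3 samples biological replicates. Abundance was summed per locus over its transcripts in TPM, a share of all transcripts that is corrected for length and scaled to 1000000 per library, and 37138 loci remained once transposable elements were set aside. Where 3 values follow each other, they belong to control libraries 1, 2 and 3, in that order.

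The root tip holds a stem cell niche around a slowly dividing quiescent centre, a meristem of dividing cells, a root cap, and above them a zone in which cells elongate and begin to differentiate into epidermis, cortex, endodermis and vascular tissue. Dividing cells make many ribosomes, whose protein genes form large families in plants, while elongating cells fill their vacuoles with water through aquaporins. The endodermis then lays down the Casparian strip, a wall barrier built on the CASP membrane proteins.

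The libraries held 40875363, 36640576 and 39072400 estimated reads. Control 1 stood somewhat apart from the other 2. Over the 14564 loci with a mean of at least 5 TPM, log2(TPM + 1) correlated across loci at 0.96 between controls 1 and 2, at 0.95 between controls 1 and 3 and at 0.97 between controls 2 and 3, and loci are not independent replicates. Chi-square over its degrees of freedom on the estimated counts was 51.5, 63.1 and 18.19 for these pairs, so no library was a copy of another. Values are therefore given per library for the genes described, and list medians that control 1 carried are given with and without it.

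The most abundant locus was AT2G01021, listed by RefSeq as a protein-coding gene of unknown function, with 67200, 119418 and 103806 TPM (mean 96808 ± 26804, SD, n = 3). It lies at chr2:6571-6672 on the plus strand of the TAIR10.1 assembly, and its whole annotated length of 102 bases is shown because this run alone held 9.72% of the TPM of all gene loci.
AT2G01021: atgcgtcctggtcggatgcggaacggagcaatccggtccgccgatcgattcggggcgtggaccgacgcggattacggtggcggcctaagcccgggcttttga
The run begins 626 bases after AT2G01020, a small ribosomal RNA gene, which itself follows the 18S ribosomal RNA gene AT2G01010. A search of the genome on both strands found exactly 1 other copy, at chr3:14200542-14200643. That copy begins 626 bases after the 5.8S ribosomal RNA gene AT3G41979 and lies within AT3G06365, annotated as an RNA of unknown kind. Both copies therefore sit at the same place in a ribosomal RNA unit, downstream of the small ribosomal RNA gene. The second most abundant locus was AT3G41768, the 18S ribosomal RNA gene of the chromosome 3 unit, with 14010, 19855 and 15512 TPM. Its near-identical partner AT2G01010 was listed at 9.43, 11.3 and 10.2 TPM, and reads that fit both genes are divided between them by estimation.

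The rank of AT2G01021 rested on its length. Its estimated read counts were 77400, 113225 and 108862, which is 0.259% ± 0.0622 (SD, n = 3) of all reads, and by CPM, the read count scaled to 1000000 per library with no regard to length, it ranked 8. Its mean effective length, the number of positions at which a fragment could start, was 26.8 bases. AT3G41768 held 2.59% ± 0.594 of the reads (SD, n = 3) and ranked 1 by CPM. Both ribosomal loci were lowest in control 1, and because TPM is a share, a larger value there leaves less for every other locus.

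Of the 37138 loci, 19163 (51.6%) had a mean of at least 1 TPM, 1574 of at least 100 TPM and 111 of at least 1000 TPM, while 12524 had no read in any of the 3 libraries. A count of 0 allows up to 3 reads, which is 0.0734, 0.0819 and 0.0768 CPM in the 3 libraries, for counting error only. Among the loci of at least 1 TPM the median was 13.6 TPM, with 2.19 TPM at the 10th percentile and 82.8 TPM at the 90th. The 10 most abundant loci together held 13.8% of the TPM of gene loci, the top 100 held 26.9%, the top 1000 held 59.1% and the top 5000 held 84.5%. Without AT2G01021 and AT3G41768, the top 10 held 3.26%, the top 100 held 17.8% and the top 1000 held 53.9%.

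**Figure D1:**
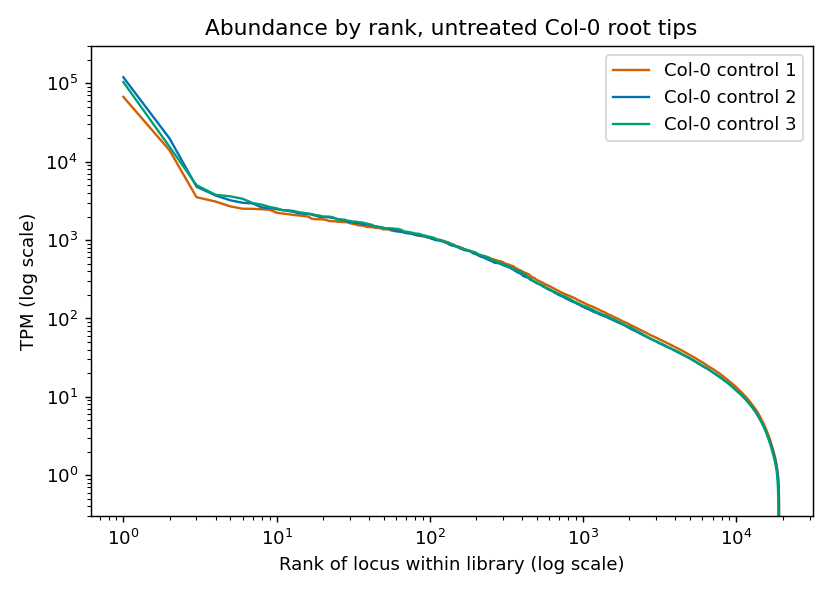
TPM of each locus (vertical, log scale) against its rank within the library (horizontal, log scale) for the 3 Col-0 control libraries, over the 19163 loci with a mean of at least 1 TPM. The lines lie close together over most ranks, apart from the leading loci, where AT2G01021 reached 67200, 119418 and 103806 TPM.

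Of the 27390 protein-coding loci, 17801 reached 1 TPM or more, and protein-coding loci held 95.6% of all TPM. That share includes AT2G01021, which lies in a ribosomal RNA unit and held 9.68% of all TPM. Long non-coding RNA loci reached 1 TPM in 712 of 3480 cases, and snoRNA loci, which guide the modification of ribosomal RNA, in 132 of 287. Of 3908 pseudogenes, 78 did so. Organelle loci summed to 2980, 3777 and 2894 TPM. Of the loci at 1 TPM or more, 8770 had several listed transcripts, and the leading transcript was the same in the 3 libraries for 6597 of them (75.2%), with a median share of 79.9% of the locus. CCR1, a glycine-rich RNA-binding protein gene also known as GRP8, was an example of a divided locus: its transcript of 1105 bases had 621, 722 and 706 TPM and its transcript of 343 bases had 1246, 617 and 707 TPM. The short form was higher in control 1 and the long form lower there.

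Below the ribosomal RNA unit, the top of the ranking belonged to the translation machinery. Of the 25 most abundant loci, 17 were annotated as ribosomal proteins, and of the top 100, 63 were. AT3G08520, of the ribosomal protein L41 family, led them with 3530, 4808 and 5024 TPM (4454 ± 808, SD, n = 3). Its longest transcript is 246 bases with an effective length of 35.9, and it ranked only 1125 by CPM, so its place also rested on length. AT4G27090, for ribosomal protein L14 of the large subunit, followed with 3101, 3705 and 3614 TPM and ranked 15 by CPM. AT3G60245, a zinc-binding ribosomal protein gene, had 2514, 2995 and 3364 TPM, and AT5G20290, for a protein of the S8e family of the small subunit, had 2087, 2408 and 2402 TPM. For these 4 genes the lowest value was that of control 1. The other ribosomal protein genes among the 25 had means between 1800 and 2352 TPM, led by emb2171 of the L14p/L23e family with 1847, 2561 and 2647 TPM. By TPM, AT4G15000, of the L27e family, with 2062, 1657 and 1766, and AT5G18380, of an S5 domain family, with 2237, 1963 and 2001, were highest in control 1. By estimated reads, both were lowest in control 1. AT4G15000 had 34136, 34353 and 37808 reads, and AT5G18380 had 44513, 44969 and 52336 reads. The source of this contrast was not tested.

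**Figure D2:**
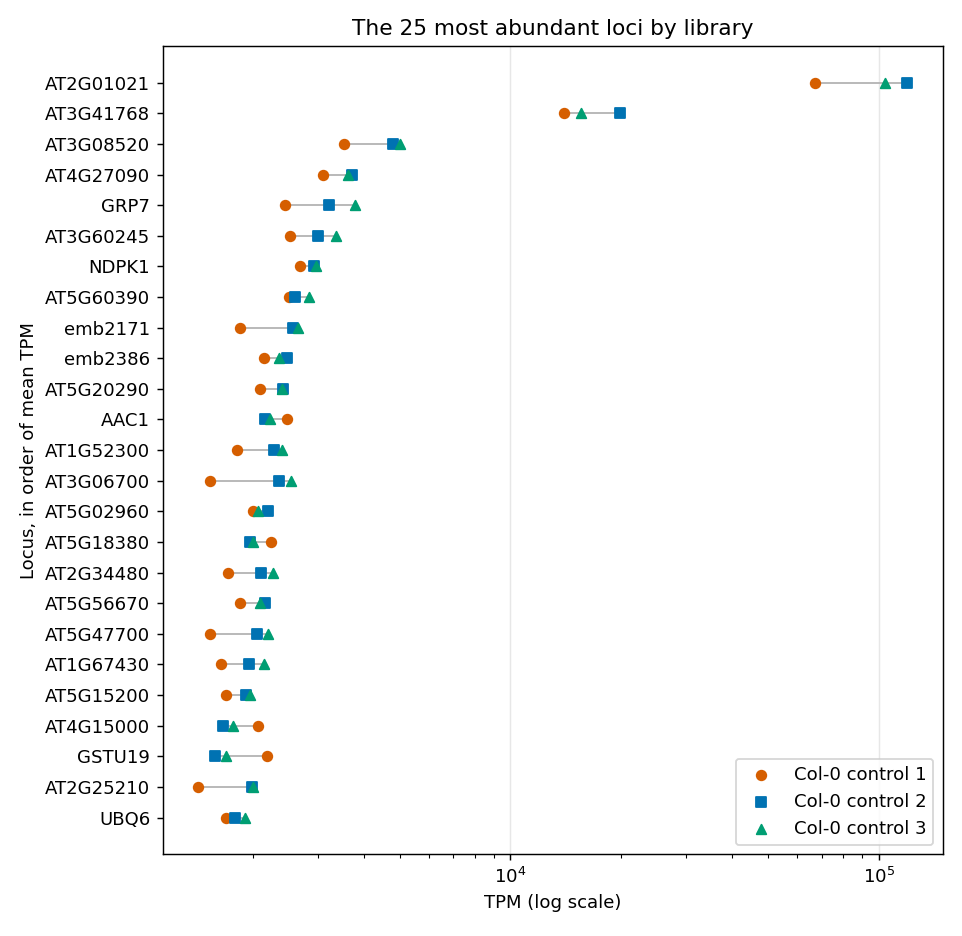
TPM (horizontal, log scale) of the 25 most abundant loci, in order of their mean from top to bottom, with a symbol for each of the 3 Col-0 control libraries and a grey line from the lowest to the highest. AT2G01021 and AT3G41768 stand far to the right, and the other 23 loci lie between 1421 and 5024 TPM.

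The remaining leaders had other roles. GRP7, a glycine-rich RNA-binding protein gene whose transcript cycles with the circadian clock, had 2440, 3217 and 3777 TPM (3145 ± 671, SD, n = 3). NDPK1, a nucleoside diphosphate kinase that balances the pools of nucleotides, had 2689, 2934 and 2967 TPM. AT5G60390, which codes for the elongation factor that brings aminoacyl-tRNA to the ribosome, had 2508, 2608 and 2832 TPM, and by CPM it was the leading protein-coding gene. AAC1, the mitochondrial carrier that exchanges ADP for ATP, had 2471, 2163 and 2228 TPM. GSTU19, a glutathione S-transferase of the tau class that conjugates reactive compounds, had 2179, 1579 and 1692 TPM. UBQ6, which codes for ubiquitin joined to a ribosomal protein, closed the 25 with 1695, 1788 and 1899 TPM, and the locus at rank 26 had a mean of 1793 TPM, so the border between them was narrower than the spread between libraries. No member of the 25 differed by more than 1.78-fold between libraries, and their coefficients of variation (CV, the SD as a share of the mean) ran between 4.74% and 27.7%, the highest being that of AT2G01021.

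Ranked by reads instead of TPM, 59 of the top 100 loci were shared and 45 of the 100 were ribosomal protein genes. The median of the longest transcript was 919 bases in the top 100 by TPM, 1311 bases in the top 100 by CPM and 1666 bases over all loci of at least 1 TPM. Longer genes of metabolism and protein folding entered the top 10 by CPM. ATMS1, which makes methionine, had a mean of 2919 CPM but ranked 88 by TPM, and HOG1, which clears the S-adenosylhomocysteine left by methylation reactions, had 2689 CPM and ranked 50. HSC70-1, a chaperone present in unstressed cells, had 2707 CPM and ranked 77, and GAPC1, a glycolytic glyceraldehyde-3-phosphate dehydrogenase, had 2065 CPM and ranked 51.

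Stretches of 250 bases upstream of annotated gene starts were read from the TAIR10.1 genome, with the telo-box core AAACCCT and the site II cores TGGGCC and TGGGCT searched on both strands. These short motifs are known from promoters of plant ribosomal protein and cell cycle genes. Among genes whose upstream stretch overlaps no annotated neighbour, the 3 most abundant ribosomal protein genes and, for contrast, the most abundant aquaporin gene are shown, with motif matches in capitals. They are emb2171 (AT3G04400, chr3:1167000-1167249, plus strand), emb2386 (AT1G02780, chr1:609535-609784, minus strand), AT1G52300 (chr1:19476235-19476484, minus strand) and the aquaporin gene PIP2;7 (AT4G35100, chr4:16708111-16708360, plus strand).
emb2171: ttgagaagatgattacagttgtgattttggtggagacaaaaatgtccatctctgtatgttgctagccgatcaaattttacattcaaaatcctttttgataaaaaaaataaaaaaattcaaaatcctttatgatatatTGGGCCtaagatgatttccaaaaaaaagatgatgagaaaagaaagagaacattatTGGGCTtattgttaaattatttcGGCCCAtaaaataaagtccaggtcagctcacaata
emb2386: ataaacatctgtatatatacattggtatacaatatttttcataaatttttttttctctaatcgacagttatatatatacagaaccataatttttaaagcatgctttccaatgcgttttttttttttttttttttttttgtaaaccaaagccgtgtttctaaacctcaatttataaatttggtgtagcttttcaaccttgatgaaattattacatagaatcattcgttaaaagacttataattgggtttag
AT1G52300: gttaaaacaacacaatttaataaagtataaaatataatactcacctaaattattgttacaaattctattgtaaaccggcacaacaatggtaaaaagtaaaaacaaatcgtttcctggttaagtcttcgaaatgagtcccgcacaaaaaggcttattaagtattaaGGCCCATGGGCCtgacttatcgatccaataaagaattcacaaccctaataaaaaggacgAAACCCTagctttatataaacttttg
PIP2;7: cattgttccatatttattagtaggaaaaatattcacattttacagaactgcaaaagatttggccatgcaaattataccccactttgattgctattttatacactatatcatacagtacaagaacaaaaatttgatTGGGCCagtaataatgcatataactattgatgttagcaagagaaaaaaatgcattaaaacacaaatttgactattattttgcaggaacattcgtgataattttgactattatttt
The stretch of emb2171 held 3 site II cores and no telo-box core. AT1G52300 held 2 site II cores, which touch each other, and 1 telo-box core close to the gene start. The stretch of PIP2;7 held 1 site II core, and neither motif was found in that of emb2386 although the gene had 2137, 2478 and 2347 TPM.

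A site II core was present upstream of 76.0% of the 100 most abundant protein-coding genes, 35.8% of the next ones up to rank 1000, 25.9% of those from there to rank 5000, 21.2% of the lower ranks that still reached 1 TPM and 11.6% of genes under 1 TPM. Over all 27388 protein-coding genes the share was 19.2%, so it went down step by step with abundance. The telo-box core showed no such steps: it was found in 23.0% of the top 100, 7.56% of the next ones up to rank 1000, 6.65% from there to rank 5000, 6.15% below them and 9.04% of genes under 1 TPM. Loci of at least 1 TPM whose product name holds the words ribosomal protein had a site II core in 56.4% of 319 cases and a telo-box core in 19.4%. With the loci matched by these words left out, 33.1% of the remaining 828 genes in the top 1000 held a site II core and 5.80% a telo-box core, and some ribosomal protein genes named otherwise, such as AT3G06700 and AT4G15000, are still among them. Mean GC content of these stretches was 32.5% in the top 100 and 31.5% over all protein-coding genes. Among gene families, 41.9% of 43 histone genes, 16.2% of 68 peroxidase genes and 6.98% of 43 arabinogalactan protein genes of at least 1 TPM held a site II core. A match is a description of letters and was not tested as a binding site.

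Families were collected by words in the product names. The exact words ribosomal protein matched 343 loci, organelle ribosomal proteins encoded in the nucleus included, of which 319 reached 1 TPM. They matched 57 of the top 100 loci, fewer than the 63 counted above, where every product name holding ribosomal was counted, RNA genes excepted. The 343 loci held 14.8%, 16.9% and 17.7% of all TPM in the 3 libraries. The share was lowest in control 1, and 186 of the 307 members with at least 5 TPM were highest in control 3, beside 27.2% of all loci of that level. Histones, which package DNA, summed to 0.809%, 0.728% and 0.766%, led by the H2B gene HTB9 with 581, 498 and 506 TPM. All 13 tubulin genes reached 1 TPM, and the leading one, TUA2 for an alpha-tubulin, had 556, 481 and 486 TPM. Control 1 was the highest library for 12 of the 13 tubulin genes and for 21 of 40 histone genes of at least 5 TPM, beside 54.6% of all loci of that level, so the histone share was near the background.

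Families that include cell wall and secreted proteins held smaller shares of TPM than the ribosomal proteins. Arabinogalactan proteins, heavily glycosylated proteins at the cell surface, held 1.099%, 1.04% and 1.01% of TPM, and AGP14 led them with 1468, 1426 and 1250 TPM ahead of AGP31 with 1304, 1266 and 1397 TPM. The 208 loci matched by the words for extensin or proline-rich proteins held 0.827%, 0.660% and 0.663%, with the extensin gene EXT3 at 1151, 882 and 948 TPM. A match by name does not make each of them a wall protein. Lipid transfer protein genes held 0.869%, 0.660% and 0.575%, and AT5G46890 had 1847, 1807 and 1234 TPM. Its close relatives AT4G12510 (1236, 866 and 704 TPM) and AT5G46900 (1082, 701 and 602 TPM) were likewise highest in control 1. Among peroxidases the cytosolic ascorbate peroxidase APX1, which detoxifies hydrogen peroxide, was steady at 1161, 1132 and 1206 TPM, whereas the class III gene AT3G01190 had 848, 553 and 485 TPM. Control 1 was the highest library for 25 of 30 lipid transfer genes and 39 of 55 peroxidase genes with at least 5 TPM, beside 7958 of all 14564 loci of that level.

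Product names or symbols that name a transcription factor family covered 988 loci, of which 572 reached 1 TPM, with a median of 10.7 TPM among those. None of them was in the top 100 and 6 were in the top 1000. BTF3, listed as a basic transcription factor and related to a subunit of the nascent polypeptide complex, led with 597, 656 and 709 TPM. Among the 10 leading loci, AT1G06760 and AT2G30620, at ranks 507 and 822, were counted only because their product name holds the words transcription factor. It lists them as winged-helix DNA-binding proteins, and by that name alone they are among the 6 in the top 1000. The name does not establish such a role, and whether they act as transcription factors was not tested. AT1G06760 had 418, 217 and 239 TPM, highest in control 1. WLIM2b and WLIM1 are actin-binding LIM proteins listed as zinc finger factors, and WLIM2b had 204, 192 and 194 TPM. The leading members of classical plant families were bZIP2 with 229, 274 and 268 TPM, NAC102 with 264, 252 and 227 TPM, ATAF2 with 140, 118 and 123 TPM and WRKY65 with 137, 132 and 111 TPM. They lay far below the leaders of the structural families above.

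Markers of root tip cells were present. All 7 root cap genes, all 12 epidermis and root hair genes, all 9 endodermis genes and 12 of 13 genes of the stem cell niche and patterning reached 1 TPM, with list medians of 21.5, 26.9, 54.2 and 14.1 TPM. Over all loci 51.6% reached that level, and over protein-coding loci 65.0% did. In bulk tissue, fewer cells of a type cannot be told apart from less RNA per cell. PLT3, a PLETHORA factor that maintains the meristem, led the niche list with 38.4, 47.2 and 47.4 TPM, and SHR, the mobile factor that patterns the ground tissue, had 23.0, 25.8 and 24.97 TPM. SCR, its partner, had 25.1, 21.1 and 19.9 TPM. WOX5, the homeobox gene that marks the quiescent centre, was the lowest at 1.04, 0.79 and 0.81 TPM. RGF7, a root growth peptide gene, led the cap list with 42.1, 26.6 and 24.4 TPM, while SMB, which promotes the maturation of cap cells, had 19.3, 27.3 and 26.4 TPM and was lowest in control 1. WER, the MYB factor of non-hair cells, had 59.7, 73.2 and 82.0 TPM and was also lowest in control 1. The root hair expansin EXPA7 (119, 76.6 and 74.7 TPM) and the hair wall protein PRP3 (127, 70.6 and 71.8 TPM) were highest there.

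**Figure D3:**
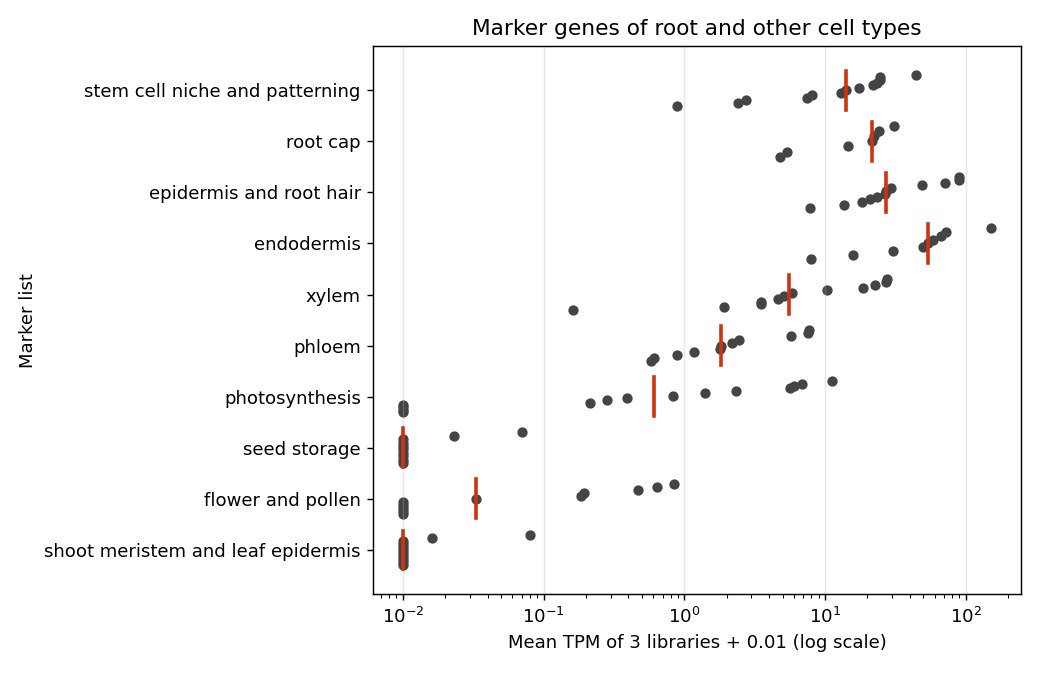
Mean TPM of the 3 Col-0 control libraries plus 0.01 (horizontal, log scale) for each marker gene, by list. Points are genes and red bars are list medians, which were 54.2 TPM for endodermis, 1.82 TPM for phloem and 0 TPM for seed storage.

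Vascular markers had lower list medians in TPM. Of 12 xylem genes 11 reached 1 TPM, with a median of 5.49 TPM, and of 11 phloem genes 8 did, with a median of 1.82 TPM. Beside the 65.0% of protein-coding loci, the phloem count does not stand apart. The phloem receptor kinase gene BAM3 had 7.60, 7.36 and 8.13 TPM and the phloem identity gene APL had 7.86, 7.44 and 7.29 TPM, so both were steady. SUC2, the sucrose carrier of companion cells, had 2.00, 0.97 and 0.48 TPM. Lists for cells that a clean tip should lack were at or near 0. None of 10 seed storage genes, 11 flower and pollen genes and 11 shoot meristem and leaf epidermis genes reached a mean of 1 TPM, and 8, 5 and 9 of them had no read in any library. The highest among them was AP3, a floral homeotic gene, with 0.81, 1.39 and 0.28 TPM. Photosynthesis genes were low but present in part: CAB1, a light-harvesting protein gene, had 15.6, 10.7 and 7.06 TPM, the antenna gene LHCA1 had 8.47, 6.09 and 2.40 TPM, the photosystem I gene PSAD-1 had 8.32, 6.45 and 3.15 TPM, and 4 of the 14 listed genes, among them 3 of the 4 small subunit genes of Rubisco, had no read.

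All 20 cell cycle genes reached at least 5 TPM, with a median of 19.8 TPM. CDC20.1, an activator of the anaphase-promoting complex, led with 50.6, 83.8 and 68.3 TPM, ahead of the central kinase gene CDKA;1 with 54.3, 44.9 and 44.6 TPM and KNOLLE, the syntaxin that builds the cell plate, with 48.1, 38.4 and 43.2 TPM. The mitotic cyclin gene CYCB1;1 had 14.4, 13.9 and 15.0 TPM. CYCA3;1, an S phase cyclin gene, was the lowest with 6.47, 7.51 and 8.28 TPM. In DNA replication, the sliding clamp genes PCNA2 (51.5, 47.2 and 48.6 TPM) and PCNA1 (43.6, 44.6 and 43.2 TPM) led 15 genes with a median of 17.39 TPM, and the origin recognition gene ORC1A was lowest with 1.199, 1.64 and 2.30 TPM. TSO2, a small subunit of the ribonucleotide reductase that makes deoxynucleotides, was the third with 43.2, 37.8 and 44.8 TPM. The 12 translation factors had a median of 521 TPM and none differed 2-fold between libraries, where the background of 6.72% would give fewer than 1 of 12. TCTP, a conserved growth-related protein gene, had 1693, 1848 and 1818 TPM and FBR12, an eIF5A gene, had 1380, 1209 and 1340 TPM.

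Among genes that the study's mutant lacks or that are known from root regeneration, the GRAS genes SCL5 and PAT1 had 22.2, 18.8 and 19.2 TPM and 18.4, 15.9 and 16.5 TPM, and SCL21 had 8.24, 7.50 and 5.84 TPM. SCL21 was the lowest of the 3 in every library. WIND1, an AP2/ERF factor that promotes callus formation at wounds, was the highest of the 8 with 87.4, 88.6 and 76.9 TPM, and RAP2.6L, a relative, had 14.1, 11.2 and 11.1 TPM. ERF115, which drives the replenishment of damaged stem cells, was listed at 0.06, 0.09 and 0.15 TPM. OBP1, a DOF factor, had 0.05 TPM in control 1 and no read in the others, and AT5G61890 had no read at all. None of the 5 members with at least 5 TPM differed 2-fold, which with 5 genes and a background of 6.72% does not set them apart.

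Stress and nutrient lists gave the state of the untreated tips. Of 11 heat shock genes, the constitutive chaperone HSC70-1 (1278, 1079 and 1155 TPM) and HSP81-3 (145, 126 and 160 TPM) were high, and the inducible HSP101 had 3.39, 2.67 and 2.50 TPM and HSP21 no read. Of 15 jasmonate and wounding genes, the repressor gene JAZ1 was the highest with 91.7, 94.0 and 81.8 TPM. The reductase gene OPR3 had 37.0, 40.1 and 47.9 TPM and the allene oxide synthase gene AOS had 11.7, 12.3 and 8.42 TPM. The defensin gene PDF1.2 and the lipoxygenase gene LOX2 had no read, and the list median was 0.49 TPM. Rapidly induced genes were well above that: the touch gene TCH2, for a calmodulin-like protein, had 69.9, 82.9 and 78.0 TPM, the zinc finger gene ZAT12 had 74.9, 50.5 and 48.7 TPM, and 11 of 12 reached 1 TPM. TCH3, another calmodulin-like gene, had 35.9, 16.3 and 17.8 TPM. Of the low oxygen genes, HB1, a hemoglobin gene, had 10.1, 7.80 and 7.17 TPM, the pyruvate decarboxylase gene PDC1 had 10.8, 4.81 and 7.97 TPM and the alcohol dehydrogenase gene ADH1 had 0.68, 0.76 and 0.26 TPM. Nitrate assimilation genes were present, with NIA2, a nitrate reductase gene, at 77.4, 70.6 and 84.3 TPM, while the nitrate carrier gene NRT2.1 was listed at 0.20, 0 and 0.20 TPM. NIA1, the other nitrate reductase gene, was lowest in control 1 with 2.58, 4.53 and 7.92 TPM. In the iron and copper list, CSD1, the cytosolic superoxide dismutase gene, had 942, 482 and 807 TPM, lowest in control 2. The iron carrier gene IRT1 had 4.93, 1.00 and 0 TPM. COPT2, a copper carrier gene, had 9.71, 7.29 and 1.43 TPM and was lowest in control 3. Among metallothioneins, MT2B led with 419, 290 and 370 TPM, MT1C had 140, 69.5 and 56.2 TPM, MT3 had 11.1, 3.64 and 9.55 TPM, and MT1A had no read.

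Clock genes differed between libraries in several directions. The morning genes CCA1 (2.44, 0.73 and 0.29 TPM) and LHY (4.92, 1.60 and 0.36 TPM) were highest in control 1 and lowest in control 3. PRR9, another morning gene, had 3.19, 1.99 and 0.24 TPM, and PRR7 had 9.57, 9.01 and 3.88 TPM. ELF4, an evening gene, ran the other way with 80.2, 124 and 184 TPM, and the evening gene TOC1 had 21.3, 24.3 and 32.2 TPM. GI, another evening gene, went with the morning genes at 18.4, 14.9 and 11.2 TPM, and PRR5, with 14.5, 17.2 and 13.4 TPM, followed neither order. BBX19, a B-box gene, had 14.9, 8.51 and 5.34 TPM, and LUX, a partner of ELF4 in the evening complex, was steadier with 23.5, 24.6 and 26.9 TPM. GRP7, described above, was also lowest in control 1 and highest in control 3. The labels used here give no hour of harvest for single samples, and the part of any such difference was not tested.

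The classical reference genes varied by different amounts. AT2G28390, of the SAND family, had 31.8, 30.9 and 30.5 TPM and a CV of 2.16%, and the ubiquitin-conjugating enzyme gene UBC9 had 148, 156 and 150 TPM and a CV of 2.64%. ACT2, an actin gene, had 1062, 938 and 793 TPM with a CV of 14.5%, GAPC1 had 1738, 1301 and 1212 TPM with a CV of 19.8%, and UBQ10, a polyubiquitin gene, had 629, 432 and 419 TPM with a CV of 23.9%. PP2AA3, a phosphatase subunit gene, had 54.3, 42.1 and 41.6 TPM. The other actin genes ACT8 (730, 667 and 592 TPM) and ACT7 (432, 374 and 369 TPM), the dehydrogenase gene GAPC2 (701, 608 and 621 TPM) and the tubulin genes TUA4 (551, 453 and 468 TPM) and TUB2 (340, 277 and 296 TPM) were highest in control 1 as well. UBQ5, which codes for ubiquitin joined to a ribosomal protein, was lowest there with 1263, 1477 and 1504 TPM. YLS8 had 152, 136 and 137 TPM, UBC21 had 54.0, 50.2 and 58.5 TPM, AT4G34270 had 51.1, 45.5 and 50.5 TPM and AT4G26410 had 73.3, 82.0 and 87.7 TPM. None of the 16 differed 2-fold, beside 6.72% of all loci of at least 5 TPM, and 12 of the 16 were highest in control 1, beside 54.6% of all, so neither count sets these genes apart.

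Loci of at least 50 TPM with the lowest CV came closer together than counting error alone would place them on average. AHL22, an AT-hook protein gene, had 79.1, 79.1 and 79.4 TPM, a CV of 0.203% where counting alone gives 1.46%. NAP1;3, a histone chaperone gene, had 119, 120 and 119 TPM. Behind them came the WD-40 repeat gene AT2G19540 (65.4, 65.9 and 65.5 TPM), the translation initiation factor gene AT1G77840 (52.9, 53.0 and 52.6 TPM) and the transport complex gene AT5G58030 (95.7, 96.6 and 96.0 TPM). AGK2, a guanylate kinase gene, AT5G21020, AT3G50520, the dUTP pyrophosphatase gene DUT1 and the prohibitin gene PHB1 completed the 10, all with a CV of at most 0.613%. As the lowest of many values from only 3 libraries, such CVs describe these libraries and do not rank the genes.

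Spread fell with abundance at first and then levelled off. The median CV was 27.7% for loci of 1 to 5 TPM, 14.0% for 5 to 20 TPM, 11.0% for 20 to 100 TPM, 10.3% for 100 to 1000 TPM and 8.80% above that. Counting alone gave medians of 9.35%, 4.13%, 2.30%, 1.17% and 0.541% in the same classes, and the measured median was above the counting median in each class. Of the 14564 loci with a mean of at least 5 TPM, 978 (6.72%) had a highest library at least 2 times the lowest. With control 1 left out the number was 291, with control 2 left out it was 786 and with control 3 left out it was 537. Control 1 was at least 2 times both others at 224 loci, control 2 at 36 and control 3 at 74. At 1000 TPM or more no locus differed 2-fold.

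**Figure D4:**
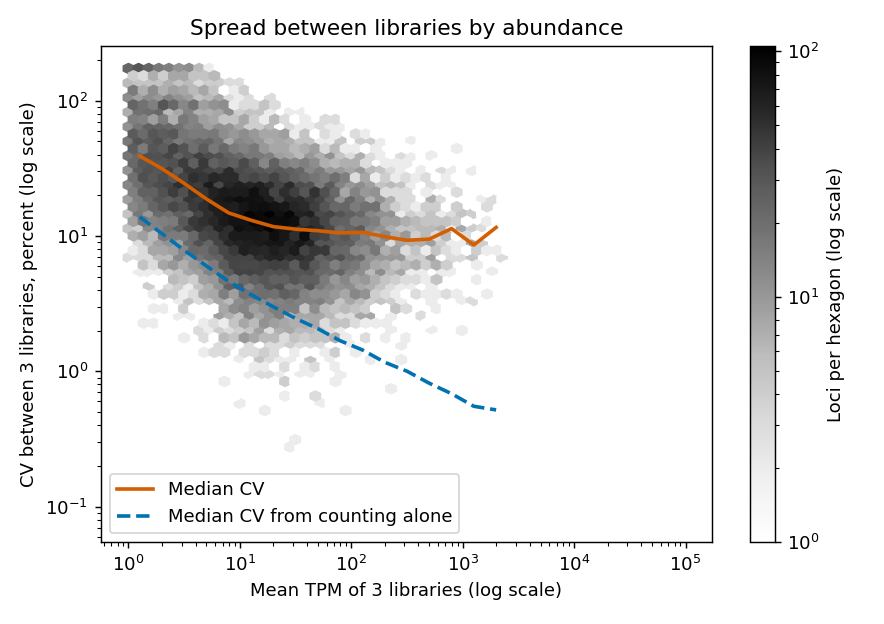
CV between the 3 Col-0 control libraries in percent (vertical, log scale) against mean TPM (horizontal, log scale) for loci of at least 1 TPM, with hexagons shaded by the number of loci. The orange line is the median CV, near 10.3% at 100 to 1000 TPM, and the dashed blue line is the median that counting alone gives, near 1.17% there.

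The 20 loci with the highest CV at a mean of at least 5 TPM were mostly short and thinly read. In 15 of them the mean was under 100 reads, 17 had no read in some library, 6 were protein-coding and 16 had a longest transcript under 500 bases. AT3G08665, a long non-coding RNA locus, was at the top with 15.5, 0 and 0 TPM, from 64.6, 0 and 0 reads. In 12 of the 20, another annotated locus overlaps. AT5G10435, with 1.2, 0 and 125.9 reads, overlaps the arabinogalactan gene AGP4, and the summed reads of both loci were 26863, 25367 and 25420. AT1G67330, of a family of glucuronoxylan methyltransferases, had 3153.9, 0 and 354.3 reads, yet together with the overlapping AT1G67328 it had 5248, 4643 and 4424 reads. For AT1G67330 the sum differed far less between libraries than its own reads did. Not every overlapping pair had steady sums, and AT1G04173 with its neighbour had 6, 4 and 16 reads. How Salmon divides reads between overlapping loci was not tested.

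A minimum of 100 reads on the mean was then set, a limit chosen after the data were seen. With it, 18 of the 20 most variable loci were protein-coding and 19 of the 20 were highest in control 1. Over all 14564 loci of at least 5 TPM, 13960 were protein-coding and 54.6% were highest in control 1. Without the limit on reads, 11 of the 20 most variable loci were highest in control 1. TIP2;3, a tonoplast aquaporin that also carries ammonia, had 291, 38.8 and 20.14 TPM, and TIP2;2, its close relative, had 285, 43.7 and 23.3 TPM. ASN1, a glutamine-dependent asparagine synthetase gene that is known as a dark-induced gene, had 94.1, 18.6 and 3.65 TPM. The beta-galactosidase gene BGAL4 had 27.7, 4.46 and 3.99 TPM and the extensin gene EXT4 had 121, 17.0 and 25.4 TPM. Among lipid transfer genes, AT1G48750 had 105, 13.8 and 18.4 TPM, AT3G53980 had 50.3, 8.74 and 0.857 TPM and AT4G33550 had 25.3, 2.46 and 4.10 TPM. QQS, a small gene that affects starch content, had 43.8, 8.91 and 6.75 TPM, and the class III peroxidase gene AT5G64120 had 19.5, 2.96 and 2.45 TPM. Among the 20 loci kept by the limit on reads, the single locus highest elsewhere was LpxC3, with 1.58, 20.8 and 2.92 TPM. It belongs to a family of near-identical copies, so its value is uncertain.

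Several of the lists held many genes that were highest in control 1. All 11 listed aquaporin genes were highest in control 1, beside 54.6% of all loci of at least 5 TPM, and lowest in control 3. Of the 11, 9 differed at least 2-fold, beside 6.72% of all loci of that level. The list does not hold every aquaporin gene, and it was chosen with earlier results of these data known. Its counts therefore describe the listed genes only. PIP2;7, a plasma membrane water channel, had 1435, 736 and 650 TPM, PIP1B had 1454, 644 and 548 TPM and the tonoplast channel TIP1;1 had 1281, 475 and 424 TPM. PIP2A (869, 332 and 251 TPM), PIP2B (806, 364 and 280 TPM), PIP1A (807, 345 and 255 TPM), TIP1;2 (1321, 697 and 566 TPM) and TIP2;1 (583, 284 and 239 TPM) followed the same order. PIP1;4, with 121, 84.4 and 79.4 TPM, and TIP4;1, with 250, 219 and 197 TPM, were the members that stayed under 2-fold. Without control 1 the median of the list was 300 TPM, against 483 TPM with it.

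The 9 listed endodermal barrier genes were also highest in control 1, but 7 of them were lowest in control 2 and 2 in control 3. Of the 9, 8 differed at least 2-fold, beside 6.72% of all loci of at least 5 TPM. This list was also chosen with earlier results of these data known, so its counts describe the listed genes only. CASP1, which scaffolds the Casparian strip, had 265, 76.2 and 112 TPM (151 ± 100, SD, n = 3), and CASP2 (115, 35.9 and 50.7 TPM), CASP4 (74.5, 30.4 and 45.2 TPM) and CASP5 (114, 30.0 and 29.5 TPM) were likewise highest in control 1. PER64, the peroxidase that polymerises lignin in the strip, had 124, 41.8 and 51.4 TPM, and the receptor kinase gene GSO1 that guards the seal had 11.9, 5.54 and 6.41 TPM. ESB1, a dirigent protein gene of the same barrier, had 22.9, 9.91 and 14.8 TPM. MYB36, the regulator that switches this programme on, had 41.2, 27.3 and 23.1 TPM and did not reach 2-fold. Without control 1 the list median was 37.0 TPM, against 54.2 TPM with it. Of the xylem genes with at least 5 TPM, XCP2 (46.2, 17.3 and 19.6 TPM) and XCP1 (45.2, 16.1 and 19.3 TPM), proteases of dying vessel cells, and CESA4 (9.99, 4.16 and 3.397 TPM), of the secondary wall cellulose synthase, differed 2-fold and were highest in control 1. The vascular patterning genes PHB (20.3, 21.0 and 26.2 TPM) and ACL5 (17.9, 17.0 and 21.1 TPM) were highest in control 3, and ATHB8, a vascular homeobox gene, was highest in control 1 with 12.4, 10.1 and 8.38 TPM.

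**Figure D5:**
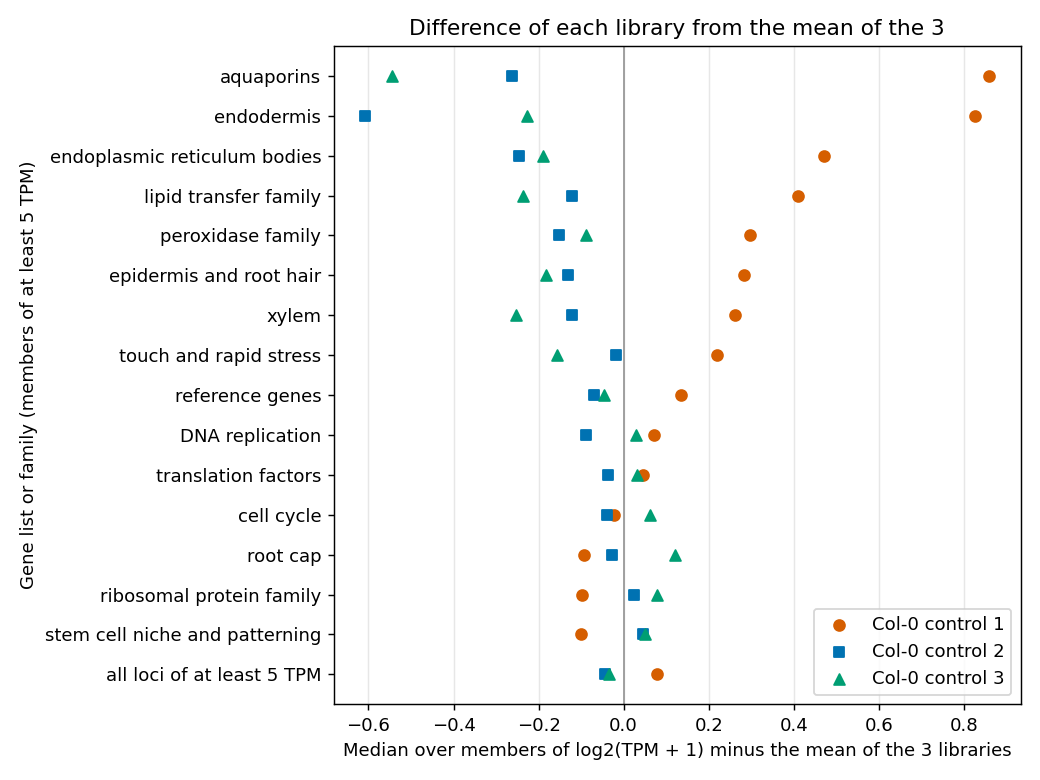
Median over the members of each list or family with at least 5 TPM of log2(TPM + 1) in a library minus its mean over the 3 Col-0 control libraries (horizontal). Control 1 lies at 0.86 for aquaporins and 0.83 for endodermis, at -0.10 for ribosomal proteins and at 0.08 for all loci in the lowest row.

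The endoplasmic reticulum bodies are storage bodies of root cells filled with beta-glucosidases. All 7 of their listed genes with at least 5 TPM were highest in control 1, beside 54.6% of all loci of that level. As with the other lists, earlier results were known when it was chosen, so the count describes the listed genes only. BGLU23, also known as PYK10, had 1715, 986 and 1082 TPM and its binding protein gene PBP1 had 1174, 733 and 764 TPM. JAL33, a jacalin-related lectin gene, had 114, 47.7 and 46.0 TPM. It was the only 1 of these 7 that passed 2-fold, beside 6.72% of all loci of at least 5 TPM. On the log2(TPM + 1) scale the median difference of control 1 from the mean of the 3 libraries was 0.86 for aquaporins, 0.83 for endodermis, 0.47 for these bodies and 0.28 for epidermis and root hair, beside 0.08 for all loci of at least 5 TPM. It was 0.53 for the 4 photosynthesis genes of that level, 0.38 for metallothioneins, 0.41 for lipid transfer genes and 0.30 for peroxidases. It was -0.10 for the stem cell niche, -0.09 for the root cap, -0.10 for ribosomal proteins and -0.01 for the 3 phloem genes of that level. Cell cycle genes were at -0.02. CYCD3;1, a D-type cyclin gene with 4.801, 8.98 and 10.4 TPM, was the only 1 of the 20 to differ 2-fold. Beside 6.72% of all loci of at least 5 TPM, that count does not set the list apart. Single members departed from their lists: RGF7 of the cap list and SCR of the niche list were highest in control 1. WER of the epidermis list was lowest there. Whether each listed gene marks the cell type of its list was not tested. Whether the cut tips differed in length or cell make-up was not tested.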

How the data were processed

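The 3 Col-0 control tables were used, 1 Salmon table per library with 88971 transcripts. Per the file headers, each gives a TPM value, an estimated read count and an effective length per transcript. The submitters' processing notes name Salmon 0.9.1 and CASAVA; the build and annotation of its index were not given in the sources used here. TPM as deposited corrects for length and sums to 1000000 in each library, and the deposited estimated counts are fractions of reads where Salmon shared a read among transcripts. Values of near-identical and of overlapping genes are uncertain for that reason.

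TPM and counts were summed per locus, 30576 transposable element loci were left out, and 36899 loci matched RefSeq TAIR10.1 by locus code, which gave names, sequences and coordinates. The tables hold no coordinates, and 79.9% of transcripts equal a RefSeq transcript of their locus in length. The library kit is not named as strand-marking, and strandedness was not tested, so overlapping genes on opposite strands may share reads. The spread calculation was tested on simulated data. Named genes were drawn from the 25 highest means, the 20 highest CVs at 5 TPM or more, the 10 lowest at 50 TPM or more, leaders of families, and the extremes and 2-fold members of 25 gene lists; some further list members and the 20 highest CVs at 100 reads or more were added after their values were seen. Loci of a nascent polypeptide complex, a mitochondrial translocase and a release factor, caught by transcription factor words, were passed over. The values of 1 endodermis list member are not reported here. Members and lists were chosen with earlier results of these data known. No test was run, since there is 1 group. Python 3.11.15, pandas 2.3.3 and biopython 1.88 were used.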

Additional observations from a re-analysis of the deposited data

How the results depend on the processing

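The number of loci at 1 TPM or more was 19163. In alternatives that kept a limit of 1, it stayed between 17788, with 1 TPM asked of each library, and 19560, with transposable elements kept. At a threshold of 2 TPM the number was 17505, and at 0.5 TPM it was 20455. The share of TPM in the 100 most abundant loci was 26.9%, and it was 15.1% by CPM of the estimated counts and 17.8% without AT2G01021 and the rRNA and organelle loci, a choice made after the data were seen. With a library left out it ran between 25.5% and 29.0%. The number of loci differing 2-fold was 978. It was 601 by CPM, 2769 with a minimum mean of 1 TPM, 283 with 20 TPM and 3598 over all loci above 0 in each library. With a library left out it ran between 291, without control 1, and 786, without control 2, and fewer libraries give a smaller range by construction. Of the 25 most abundant loci, 11 were among the top 25 by CPM and at least 23 with any library left out. By CPM, which ignores length, 15 of 25 list medians moved by more than their spread between libraries; the xylem median was 16.0 CPM and that of the root cap 15.3 CPM. No paired analysis was possible because only 1 group was described and no test was made. Depth limits loci under about 5 TPM, where counting alone gave a median CV of 9.35% between 1 and 5 TPM. With only 3 libraries, a CV is itself imprecise.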
